A study of Glycine max with 10 samples.

Results

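The 9 genes described here encode soybean fatty acid desaturases and were taken by identifier from the 55983 genes of the count table. They are the stearoyl-ACP desaturase gene SACPD-C (Glyma.14G121400), the seed-type oleate desaturase genes FAD2-1A (Glyma.10G278000) and FAD2-1B (Glyma.20G111000), the FAD2-2 genes Glyma.19G147300, Glyma.19G147400 and Glyma.03G144500, and the linoleate desaturase genes FAD3A (Glyma.14G194300), FAD3B (Glyma.02G227200) and FAD3C (Glyma.18G062000). They were measured by RNA-seq of leaves in 10 libraries, each made from RNA of 3 replicates pooled in equal amounts, so a condition is represented by 1 library and differences between single libraries lack a replicate check. The susceptible cultivar was LD12-15838R and the resistant cultivar was LD12-15813Ra, which carries Rag1, a gene for resistance to the soybean aphid. In each cultivar, control leaves without aphids were sampled at day 1 and day 11. Leaves that received 50 biotype 2 aphids as an inducer and 15 biotype 1 aphids as the response population were sampled at the same days, and leaves with 15 biotype 1 aphids alone were sampled at day 11 only. Biotype 1 is avirulent and biotype 2 is virulent on plants with Rag1. The comparisons asked how the desaturase genes differed between leaves with and without aphids, with and without the inducer, between the cultivars and between the days.

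Plant fatty acids gain their double bonds stepwise. In the plastid, stearoyl-ACP desaturases place the first double bond in stearic acid and make oleic acid. At the endoplasmic reticulum, FAD2 enzymes turn oleic acid into linoleic acid, and FAD3 enzymes turn linoleic acid into linolenic acid, which is a major fatty acid of leaf membranes and the precursor of jasmonate, a hormone of wound and herbivore responses. In soybean, FAD2-1 genes are known for expression in developing seeds and as targets for high-oleic oil, FAD2-2 genes for expression in vegetative tissue, FAD3 genes for their part in seed linolenic acid, and SACPD-C for the stearic acid content of seeds.

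Library totals lay between 23394065 and 25665558 estimated counts. Levels are given as CPM, the counts of a gene relative to the library total, scaled by trimmed mean of M-values (TMM) factors, which correct for a difference in composition between libraries and ran from 0.772 to 1.15. A level of 3 counts corresponded to between 0.104 and 0.158 CPM, depending on the library. Gene lengths were not used here, so levels of different genes are not compared with each other. Few genes separated the libraries by labelled cultivar or day. Over the 37468 genes with more than 0.5 CPM in at least 1 library, only 0.165% had levels that did not overlap between the labelled cultivars and 0.179% between the labelled days. By contrast, 8.39% did not overlap between a set made of the susceptible libraries of day 11 with the resistant libraries of day 1 and the set of all others, and this share was 29.5% when the resistant control of day 1 was left out. Fitted estimates of single genes that rest on that library are given with and without it. Ratios of a single library to it have no version without it. In pooled leaf RNA, fewer cells of a type and less RNA per cell cannot be told apart.

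Of the 9 genes, 6 passed the filter of 0.5 CPM in at least 1 library. Glyma.19G147400, Glyma.03G144500, FAD3A, FAD3B and FAD3C passed it in all 10 libraries and SACPD-C in 4. FAD2-1A, FAD2-1B and Glyma.19G147300 did not pass it in any library and entered no test.

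**Figure D1:**
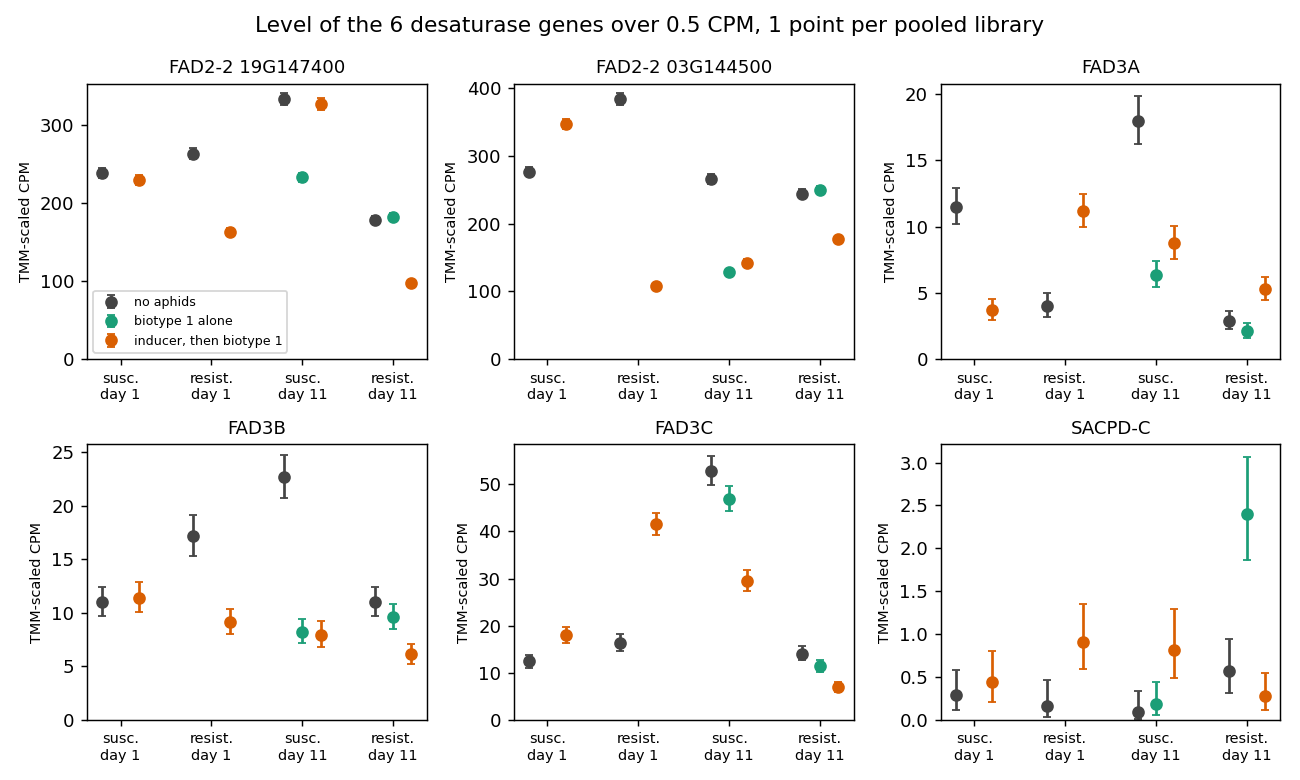
Level of the 6 desaturase genes that passed the filter, in TMM-scaled CPM, with 1 point per pooled library. Bars are 95% exact Poisson intervals that cover counting error only. FAD3C reached between 29.5 and 52.8 in the 3 susceptible libraries of day 11 and 41.5 in the resistant inducer library of day 1, against 6.92 to 17.9 in the other 6.

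SACPD-C, a gene for a stearoyl-ACP desaturase of the plastid, was close to the limit of detection in most libraries. Its highest level was 2.40 CPM (66 counts, 95% exact Poisson interval 1.86 to 3.06) in the resistant leaves with biotype 1 alone at day 11, followed by 0.912 CPM (25 counts, interval 0.590 to 1.35) in the resistant inducer leaves of day 1. These intervals cover counting error only. The other 8 libraries held between 2 and 18 counts of it. In the susceptible cultivar the levels were 0.284 CPM in the control and 0.437 CPM in the inducer leaves at day 1, and 0.0923 CPM in the control, 0.189 CPM with biotype 1 alone and 0.814 CPM with the inducer at day 11. In the resistant cultivar the control held 0.158 CPM at day 1 and 0.563 CPM at day 11, and the inducer leaves of day 11 held 0.277 CPM. Leaves with aphids and control leaves overlapped, and a single library carried the highest value. The change with biotype 1 alone against the control was 1.79 on the log2 scale (SE 1.09), with an adjusted p of 0.963 in edgeR's quasi-likelihood test with Benjamini-Hochberg adjustment, and it was -0.30 without the resistant biotype 1 library and 1.66 without the resistant control of day 1.

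FAD2-1B had 0 counts in all 10 libraries, which allows a level of up to 3 counts, or 0.104 to 0.158 CPM, while the upper end of the 95% exact Poisson interval lay between 0.128 and 0.194 CPM. FAD2-1A had 12 counts in all. Of these, 11 lay in the 3 libraries labelled susceptible at day 11, with 4 counts in the control (0.185 CPM, 95% exact Poisson interval 0.0503 to 0.473), 6 with biotype 1 alone (0.227 CPM, interval 0.0832 to 0.493) and 1 with the inducer. The last count lay in the resistant leaves with biotype 1 alone at day 11. Both seed-type FAD2 genes were thus at or near 0 in these leaves.

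The 3 FAD2-2 genes differed in whether they were read at all. Glyma.19G147300, on the same chromosome as Glyma.19G147400, had 3 counts in total, 1 each in the susceptible control and the susceptible inducer leaves of day 1 and in the resistant inducer leaves of day 11. On chromosome 19 of the assembly Glycine_max_v4.0, the genes that the reference names FAD2-2A and FAD2-2B are neighbours, with 0 genes between them. Of the FAD2 genes listed here, Glyma.19G147400 and Glyma.03G144500 thus carried nearly all counts in these leaves. Any other FAD2 genes were not analysed.

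Glyma.19G147400 was highest in the susceptible control and inducer leaves of day 11 and lowest in the resistant inducer leaves of both days. In the susceptible cultivar it reached 238 CPM in the control and 229 CPM in the inducer leaves at day 1, and 332 CPM in the control, 233 CPM with biotype 1 alone and 326 CPM with the inducer at day 11. In the resistant cultivar it reached 263 CPM in the control and 163 CPM in the inducer leaves at day 1, and 178 CPM in the control, 182 CPM with biotype 1 alone and 97.0 CPM with the inducer at day 11. At day 11 the resistant libraries all lay below the susceptible ones, as they did for 22.3% of all retained genes. At day 1 the cultivars overlapped. The highest level was 3.43 times the lowest.

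Glyma.03G144500 had a different order of libraries. In the susceptible cultivar it reached 276 CPM in the control and 347 CPM in the inducer leaves at day 1, and 266 CPM in the control, 129 CPM with biotype 1 alone and 142 CPM with the inducer at day 11. In the resistant cultivar it reached 383 CPM in the control and 108 CPM in the inducer leaves at day 1, and 244 CPM in the control, 249.6 CPM with biotype 1 alone and 177 CPM with the inducer at day 11. Its highest and lowest levels were therefore those of the resistant control and the resistant inducer leaves of day 1, which differed 3.54 times. Neither the cultivars nor the days separated.

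The share of Glyma.19G147400 in the counts of the 3 FAD2-2 genes put the libraries into a clear order. This share depends neither on the library total nor on its scaling and is not corrected for gene length. It was 64.4% with biotype 1 alone, 69.6% with the inducer and 55.6% in the control of the susceptible cultivar at day 11, and 60.1% in the resistant inducer leaves of day 1. In the other 6 libraries it lay between 35.4% and 46.2%. The sum of the 3 FAD2-2 genes ranged from 271 to 646 CPM, and its highest level was 2.38 times the lowest. The fractional parts of the estimated counts of Glyma.19G147400 and Glyma.03G144500 added up to a whole number (within 0.001) in 3 of 10 libraries, which is the sum that reads divided between only these genes would give. In the other 7 they did not. The next best partner of either gene matched in 2 libraries, so whether reads were divided here is unclear.

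**Figure D2:**
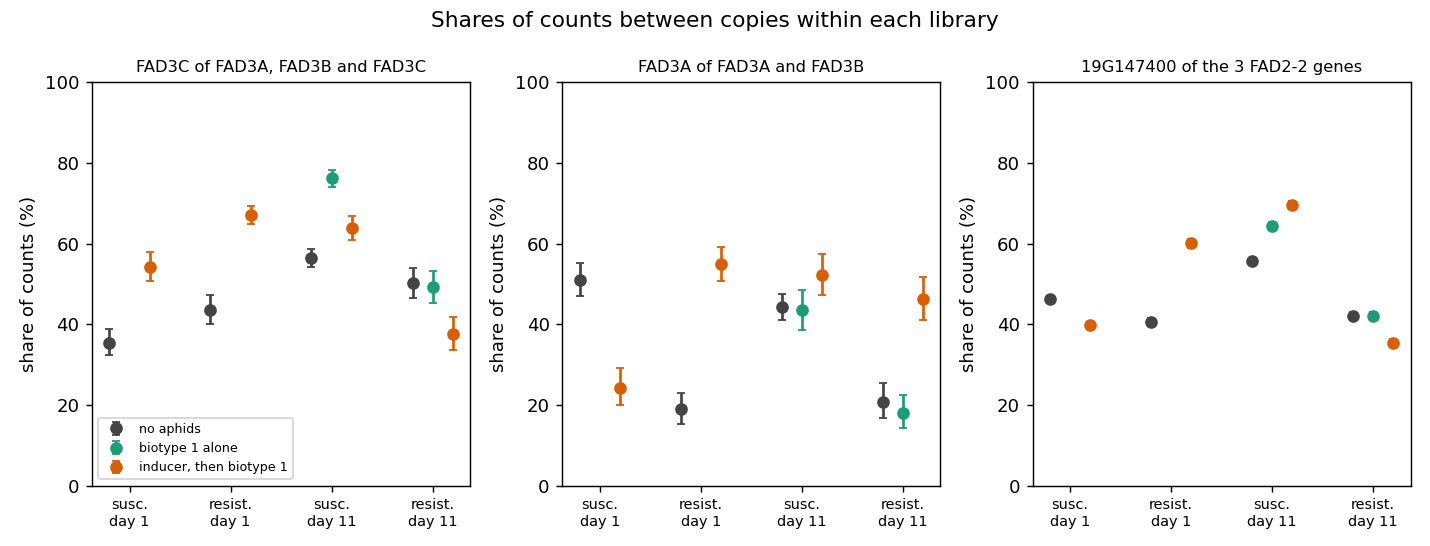
Share of FAD3C in the estimated counts of the 3 FAD3 genes, of Glyma.19G147400 in those of the 3 FAD2-2 genes, and of FAD3A in the sum of FAD3A and FAD3B, in percent, 1 point per pooled library, with 95% Wilson intervals that cover counting error only. The first 2 shares were highest in the 3 susceptible libraries of day 11 and the resistant inducer library of day 1. For FAD3C, the intervals of the susceptible control of day 11 and the susceptible inducer library of day 1 overlapped. FAD3A made up 18.01% to 24.3% in 4 libraries and 43.5% to 55.0% in 6.

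FAD3C, an omega-3 desaturase gene, had the largest SD of log2 levels among the 6 genes. In the susceptible cultivar it reached 12.4 CPM in the control of day 1 and 52.8 CPM in the control of day 11. With the inducer the susceptible leaves held 17.9 CPM at day 1 and 29.5 CPM at day 11, and with biotype 1 alone they held 46.9 CPM. In the resistant cultivar it reached 16.4 CPM in the control and 41.5 CPM in the inducer leaves at day 1, and 14.04 CPM in the control, 11.4 CPM with biotype 1 alone and 6.92 CPM with the inducer at day 11. The 3 susceptible libraries of day 11 and the resistant inducer library of day 1 thus lay above the other 6. The inducer libraries were above their controls at day 1 and below them at day 11 in both cultivars, an opposite order by day that 6.78% of all retained genes had in either direction. The resistant control of day 1 lay among the low libraries. Without it, the susceptible day 11 and resistant day 1 libraries (29.5 to 52.8 CPM) did not overlap the rest (6.92 to 17.9 CPM), as was the case in the higher direction for 16.9% of all retained genes.

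Of the summed counts of FAD3A, FAD3B and FAD3C, FAD3C made up 56.5% in the susceptible control of day 11. It made up 76.3% with biotype 1 alone and 63.9% with the inducer in susceptible leaves of that day, and 67.2% in the resistant inducer leaves of day 1. In the other 6 libraries its share lay between 35.5% and 54.3%. The 4 libraries with the highest share of FAD3C were those with the highest share of Glyma.19G147400 among the FAD2-2 genes. For FAD3C this boundary lay within counting error. The Wilson interval was 54.3% to 58.7% in the susceptible control of day 11 and 50.7% to 57.8% in the susceptible inducer leaves of day 1. With the resistant control of day 1 left out, levels of 29.5% of all retained genes separated these 4 libraries from the rest. How often shares in other gene families had this order was not tested. Some FAD3C reads may also have been divided. The fractional counts of FAD3C added up to a whole number with those of Glyma.11G174100 in 7 of the 9 libraries where they were not whole. Glyma.11G174100 is an identifier chosen after its values were seen, and its counts are not part of the shares given here. That identifier stood at 3.74 CPM, 3.17 CPM and 0.905 CPM in the control, biotype 1 and inducer libraries of the susceptible cultivar at day 11 and at 2.37 CPM in the resistant inducer library of day 1, and at no more than 0.284 CPM elsewhere.

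FAD3A and FAD3B, the other linoleate desaturase genes, cannot be fully separated in these data. The fractional counts of this pair added up to a whole number in 9 of 10 libraries, while the next best partner did so in 2, so that reads may have been divided between them and each gene's own level is uncertain. The sum of both is therefore given beside the separate values.

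The separate levels of FAD3A differed up to 8.52 times between libraries. In the susceptible cultivar it reached 11.5 CPM in the control and 3.67 CPM in the inducer leaves at day 1, and 17.995 CPM in the control, 6.35 CPM with biotype 1 alone and 8.73 CPM with the inducer at day 11. In the resistant cultivar it reached 4.00 CPM in the control and 11.2 CPM in the inducer leaves at day 1, and 2.90 CPM in the control, 2.11 CPM with biotype 1 alone and 5.29 CPM with the inducer at day 11. The inducer libraries were below their controls in the susceptible cultivar and above them in the resistant cultivar, an opposite order by cultivar that 16% of all retained genes had in either direction. At day 11 all resistant libraries lay below all susceptible ones, as they did for 22.3% of all retained genes.

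FAD3B differed up to 3.70 times between libraries. In the susceptible cultivar it reached 11.0 CPM in the control and 11.4 CPM in the inducer leaves at day 1, and 22.7 CPM in the control, 8.24 CPM with biotype 1 alone and 7.96 CPM with the inducer at day 11. In the resistant cultivar it reached 17.1 CPM in the control and 9.12 CPM in the inducer leaves at day 1, and 11.0 CPM in the control, 9.62 CPM with biotype 1 alone and 6.12 CPM with the inducer at day 11. Leaves with aphids held at most 11.4 CPM and control leaves at least 11.0 CPM, so the groups overlapped by a small margin, and none of the 6 genes separated leaves with aphids from control leaves, as 3.44% of all retained genes did. The sum of FAD3A and FAD3B ranged from 11.4 to 40.7 CPM, and the sum of FAD3A, FAD3B and FAD3C from 18.3 to 93.5 CPM.

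FAD3A made up 18.95% and 20.9% of the sum with FAD3B in the resistant controls of day 1 and day 11, 18.01% in the resistant leaves with biotype 1 alone and 24.3% in the susceptible inducer leaves of day 1. In the other 6 libraries it made up between 43.5% and 55.0%, with no library in between. This division crossed cultivar, day and aphid treatment.

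Across the 10 libraries the 6 genes varied more than most genes. The SD of log2 levels was 0.96 for FAD3C, which exceeded that of 93.4% of all retained genes, 0.90 for FAD3A (92.2%), 0.69 for SACPD-C (84.6%), 0.62 for Glyma.03G144500 (80.1%), 0.52 for Glyma.19G147400 (72.3%) and 0.52 for FAD3B (72.2%), against a median of 0.37 over all retained genes. Levels were log2(CPM + 0.5), which understates changes of low genes such as SACPD-C.

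Differences were tested with edgeR's quasi-likelihood test in a model of cultivar, day, their interaction and treatment, with 4 residual degrees of freedom. The test moderates each gene's error with that of the other genes, so p-values are smaller than the residual degrees of freedom alone would give for the same ratio of estimate to SE. SEs were derived from the fold change and the F statistic and are approximate. P-values measure the spread between pooled libraries around this model, not between plants of a condition.

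The largest difference between the cultivars in the change over time among the 6 genes was that of FAD3C. The change from day 1 to day 11 was lower in the resistant than in the susceptible cultivar by a log2 difference of -2.93 (SE 0.72), with an unadjusted p of 0.00471 and an adjusted p of 0.0971 in edgeR's quasi-likelihood test with Benjamini-Hochberg adjustment. It therefore missed the threshold of 0.05, as did the other 5 genes. In this comparison edgeR called 0.654% of retained genes lower and 0.149% higher, 23.3% had an unadjusted p below 0.05 and FAD3C alone did so among the 6 genes. DESeq2 called FAD3C (log2 difference -2.94, adjusted p 0.00221) and none of the other 5 genes, against 7.98% of all retained genes called lower. Without the resistant control of day 1, edgeR's quasi-likelihood test also called it (-3.63, SE 0.55, adjusted p 0.00911 with Benjamini-Hochberg adjustment), against 13.4% of genes called lower. Over all alternatives its adjusted p ran from 0.00221 to 0.268.

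The other desaturase genes had smaller or less certain interactions. The log2 difference was -1.70 (SE 0.93) for FAD3A, -0.83 (SE 0.52) for Glyma.19G147400, -0.53 (SE 0.53) for FAD3B, 0.98 (SE 0.71) for Glyma.03G144500 and 1.26 (SE 1.64) for SACPD-C, with adjusted p between 0.308 and 0.668 in edgeR's quasi-likelihood test. Without the resistant control of day 1 these were -2.54, -0.61, -0.48, 1.74 and 0.54, with the lowest adjusted p at 0.0685 for FAD3A and 0.0930 for Glyma.03G144500 by the same test. With each library left out in turn, FAD3A ran from -2.91 without the susceptible control of day 1 to -0.41 without the resistant inducer library of day 1, Glyma.03G144500 from 0.26 without the susceptible inducer library of day 1 to 1.74, and SACPD-C from 0.071 to 2.62. For the sum of FAD3A, FAD3B and FAD3C it was -2.11 (SE 0.52, adjusted p 0.0981 by the same test). For the sum of the FAD2-2 genes it was 0.02 (SE 0.60, adjusted p 0.984 by the same test). The estimates of Glyma.19G147400 and Glyma.03G144500 thus had opposite signs. Neither was called, so opposite changes of these genes were not shown.

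**Figure D3:**
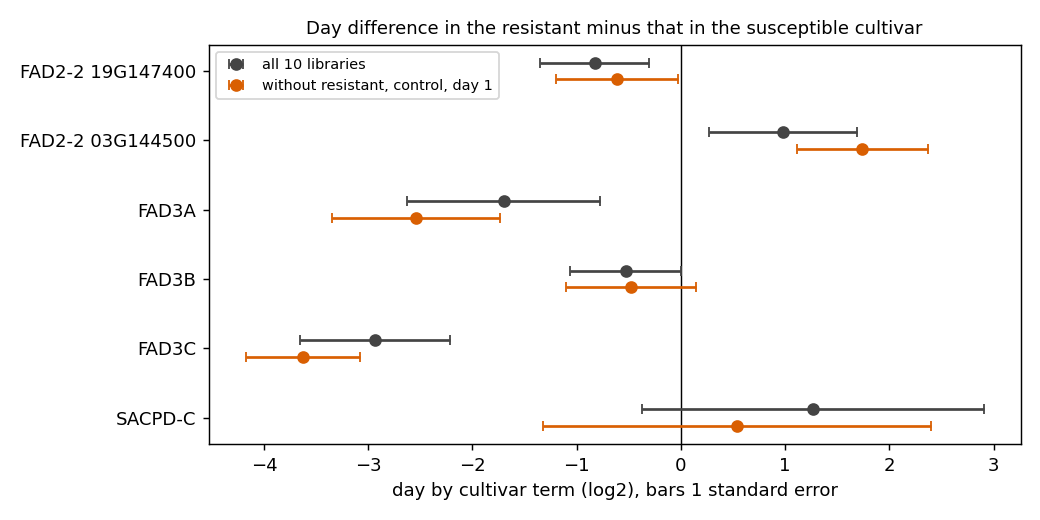
Estimated log2 difference between the cultivars in the change from day 1 to day 11, for the 6 desaturase genes that passed the filter, as points with bars of 1 approximate SE from edgeR's quasi-likelihood fit, for all 10 libraries and without the resistant control of day 1. FAD3C stood at -2.93 with all libraries and at -3.63 without that control, and both bars lay below 0.

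At day 11, FAD3C, FAD3A and Glyma.19G147400 each had lower levels in all 3 resistant libraries than in any susceptible library. Such a lack of overlap in the lower direction was found in 22.3% of all retained genes. The within-day contrasts were added after the data were seen. The log2 difference between the cultivars at day 11 was -1.997 (SE 0.46) for FAD3C, -1.64 (SE 0.60) for FAD3A and -0.999 (SE 0.34) for Glyma.19G147400, with adjusted p of 0.0844, 0.152 and 0.134 in edgeR's quasi-likelihood test. None of the 6 genes was called by edgeR, which called 0.291% of all retained genes lower, and 3 had an unadjusted p below 0.05, against 25.8% of all genes.

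DESeq2 called these same 3 genes lower in the resistant cultivar at day 11, with adjusted p of 0.000869 for FAD3C, 0.0445 for FAD3A and 0.0213 for Glyma.19G147400, against 8.91% of all retained genes called lower. FAD3C was also called by edgeR's quasi-likelihood test when the resistant control of day 1 (log2 difference -2.004, adjusted p 0.0133) or the resistant inducer library of day 1 (-1.99, adjusted p 0.0134) was left out, against 9.73% and 9.41% of genes called lower. Without the resistant control of day 1 the difference was -1.54 for FAD3A and -0.99 for Glyma.19G147400. Over all alternatives the adjusted p ran from 0.000869 to 0.3601 for FAD3C, from 0.0445 to 0.429 for FAD3A and from 0.0213 to 0.463 for Glyma.19G147400. For the sum of FAD3A and FAD3B the log2 difference was -0.83 (adjusted p 0.139 in edgeR's quasi-likelihood test). In the 3 matched comparisons of day 11, FAD3C was lower in the resistant library by a log2 ratio of -1.88 in the controls, -1.99 with biotype 1 alone and -2.02 with the inducer. The ratio was thus nearly the same whether or not aphids were present.

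At day 1 the cultivars did not separate for FAD3C. The log2 difference was 0.94 (SE 0.55, adjusted p 0.989 in edgeR's quasi-likelihood test). It was -0.16 without the resistant inducer library and 1.63 without the resistant control of day 1. The resistant inducer library exceeded its susceptible counterpart by a log2 ratio of 1.19, and the resistant control stood at 0.39 to the susceptible control, or at -0.033 with plain library totals. Within the cultivars, FAD3C changed from day 1 to day 11 by 1.45 (SE 0.55, adjusted p 0.302 by the same test) in the susceptible and by -1.48 (SE 0.54, adjusted p 0.623) in the resistant cultivar. The change in the susceptible cultivar was 1.35 without the resistant control of day 1. That in the resistant cultivar was -0.49 (adjusted p 0.823 by the same test) without the resistant inducer library of day 1 and -0.996 without that of day 11. Without the resistant control of day 1 it was -2.28 with an adjusted p of 0.0490, against 3.61% of genes called lower, and over all alternatives the adjusted p ran from 0.0490 to 1.00.

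Averaged over both days, none of the 6 genes was called between the cultivars, and averaged over both cultivars none was called between the days, by edgeR or by DESeq2. For the cultivars 1.64% and for the days 1.01% of all retained genes had an unadjusted p below 0.05 in edgeR's test, and none of the 6 did. The estimate with the lowest p between the cultivars was that of Glyma.19G147400, which was lower in the resistant cultivar by a log2 difference of -0.59 (SE 0.26, unadjusted p 0.0612, adjusted p 1.00 in edgeR's quasi-likelihood test), and of -0.68 without the resistant control of day 1. None of the genes had levels that did not overlap between the cultivars or between the days.

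The inducer treatment was compared with the aphid-free control in both cultivars at both days. FAD3B had the lowest p, with a log2 change of -0.82 (SE 0.29, unadjusted p 0.0261, adjusted p 0.649 in edgeR's quasi-likelihood test). Glyma.03G144500 had a change of -0.73 (SE 0.39, adjusted p 0.692 by the same test) and Glyma.19G147400 of -0.39 (SE 0.29, adjusted p 0.757). SACPD-C had a change of 1.46 (SE 0.90, adjusted p 0.721), FAD3A of -0.11 and FAD3C of -0.0026. Without the resistant control of day 1 the changes were -0.79 for FAD3B, -0.36 for Glyma.03G144500, -0.29 for Glyma.19G147400, 1.03 for SACPD-C, -0.64 for FAD3A and -0.45 for FAD3C. With each library left out in turn, Glyma.03G144500 ran from -1.07 without the susceptible inducer library of day 1 to -0.34 without the resistant one, and SACPD-C from 0.52 without the susceptible to 2.25 without the resistant inducer library of day 11. The signs for FAD3A and FAD3C turned in some of these fits. Over all alternatives, which also held a fit of day 11 alone, FAD3C ran from -0.93 to 0.32 and FAD3B from -1.21 to -0.52. None was called by edgeR, which called no gene of the whole table for the inducer, while 7.61% had an unadjusted p below 0.05 and FAD3B alone did so among the 6 genes. DESeq2 called none of the 5 genes for which it gave an adjusted p and gave none for SACPD-C. With biotype 1 alone against the control, none of the 6 was called by edgeR or DESeq2 or had an unadjusted p below 0.05 in edgeR, as 4.08% of all retained genes had, and the estimate for FAD3A was -1.07 (SE 0.69, adjusted p 0.963 in edgeR's quasi-likelihood test), or -1.35 without the resistant control of day 1 and -0.55 without the susceptible control of day 11. The inducer against biotype 1 alone gave the same count of 0 calls by edgeR and by DESeq2 and 0 unadjusted p below 0.05 among the 6 genes, against 0.683% of all genes.

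**Figure D4:**
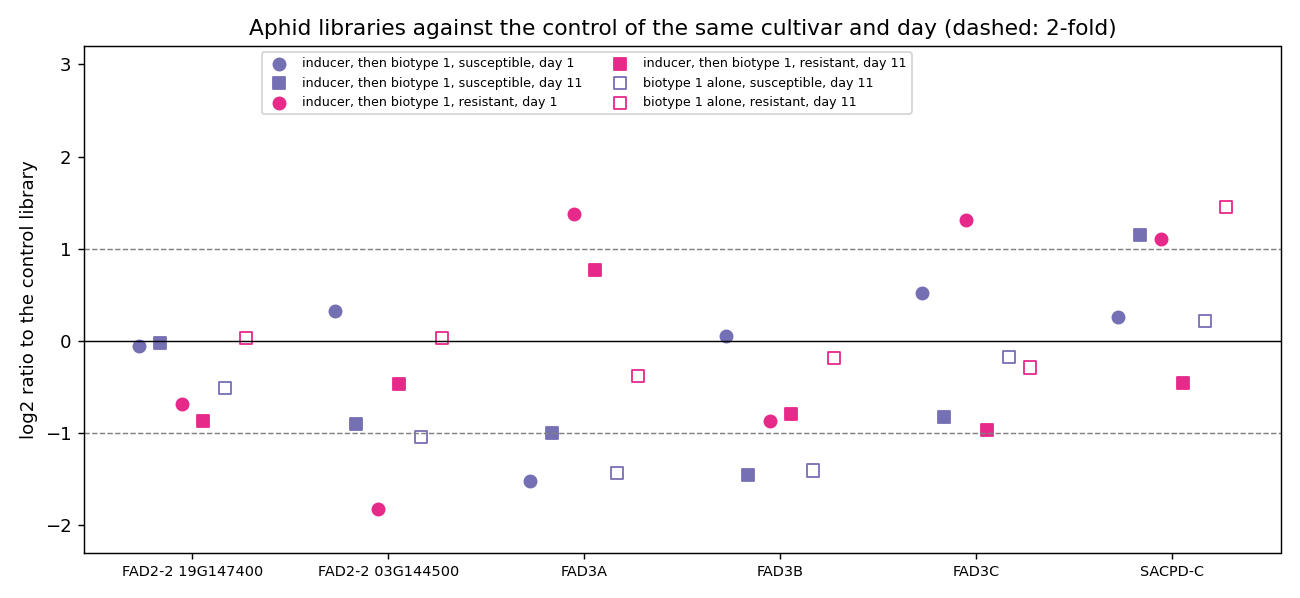
Log2 ratio of TMM-scaled CPM + 0.5 of aphid libraries to the control of the same cultivar and day, for the 6 desaturase genes that passed the filter. Each pair of libraries is 1 point, and lines mark a 2-fold difference. FAD3A with the inducer lay at -1.52 and -1.003 in the susceptible and at 1.37 and 0.77 in the resistant cultivar.

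Between single libraries matched for cultivar and day, 14 of 48 ratios of the 6 genes differed at least 2-fold. Several pairs share a library, so these ratios are not independent. The share of all retained genes past 2-fold differed between pairs and is given below for each pair. With the inducer in susceptible leaves of day 1, FAD3A was the gene past this limit, with a log2 ratio of -1.52 to the control, against 4.16% of all retained genes that were lower, and none was higher, against 2.85%. At day 11, FAD3B (-1.45) and FAD3A (-1.003) were lower, against 5.15% of genes, and SACPD-C was higher (1.15), against 5.01%. The SACPD-C ratio rested on 18 counts against 2, and the control was below the limit of detection of 3 counts. Glyma.03G144500 stood at -0.90 in that pair.

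In resistant leaves of day 1 the inducer library differed from its control at Glyma.03G144500, which was lower by a log2 ratio of -1.82, against 13.9% of genes, and at FAD3A (1.37), FAD3C (1.32) and SACPD-C (1.10), which were higher, against 14.2% of genes. This pair rests on the resistant control of day 1, whose TMM factor of 0.772 was the lowest. With plain library totals the median of all genes in it shifted by 0.48 on the log2 scale, and 28.2% of genes were 2-fold higher and 6.48% lower. The log2 ratios were then -1.24 for Glyma.03G144500, 1.90 for FAD3A, 1.88 for FAD3C and 1.32 for SACPD-C, so that each kept its direction. SACPD-C had only 25 counts against 3 in this pair. In resistant leaves of day 11 none of the 6 genes passed 2-fold with the inducer, against 4.52% of all genes that were lower and 1.62% that were higher.

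Biotype 1 alone went with lower levels of FAD3A (-1.43), FAD3B (-1.41) and Glyma.03G144500 (-1.04) than in the control in susceptible leaves of day 11, on the log2 scale, against 5.36% of genes that were lower, and none of the 6 was 2-fold higher, against 2.78%. In resistant leaves FAD3A stood at -0.38, FAD3B at -0.18 and Glyma.03G144500 at 0.03, and SACPD-C was past 2-fold with a log2 ratio of 1.45, against 1.19% of genes that were higher, while none was 2-fold lower, against 2.64%. The inducer and biotype 1 libraries of susceptible leaves did not differ 2-fold at any of the 6 genes, against 4.07% of all genes that were lower and 3.97% that were higher. In resistant leaves the inducer library was higher at FAD3A (1.15), against 1.22% of all genes, and lower at SACPD-C (-1.90), against 2.24%.

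Between the cultivars, matched for treatment and day, FAD3A (-1.41) was the gene past 2-fold in the controls of day 1, with the log2 ratio given as resistant over susceptible, against 4.25% of all retained genes that were lower, and none was higher, against 5.32%. With the inducer at day 1 FAD3A (1.48) and FAD3C (1.19) were higher, against 12.7% of genes, and Glyma.03G144500 (-1.67) was lower, against 10.1%. The order of the cultivars at FAD3A was thus opposite in these 2 comparisons of day 1. In the controls of day 11 FAD3A (-2.45), FAD3C (-1.88) and FAD3B (-1.01) were lower, against 11.9% of genes, and none was higher, against 9.78%. With biotype 1 alone FAD3C (-1.99) and FAD3A (-1.39) were lower, against 10.7%, and SACPD-C (2.08) was higher, against 7.45%. With the inducer at day 11 FAD3C (-2.02) and Glyma.19G147400 (-1.75) were lower, against 9.76%, and none was higher, against 6.76%. FAD3C was thus the gene past 2-fold in all 3 comparisons of day 11.

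Between the days, with the log2 ratio given as day 11 over day 1, the susceptible controls differed at FAD3C (2.05) and FAD3B (1.01), which were higher, against 10.4% of all retained genes, and none was lower, against 10.1%. In susceptible inducer leaves FAD3A (1.15) was higher, against 8.49%, and Glyma.03G144500 (-1.28) was lower, against 7.15%. In the resistant controls no member of the 6 passed 2-fold, against 2.14% of genes that were higher and 3.67% that were lower. In resistant inducer leaves FAD3C (-2.503) and FAD3A (-1.01) were lower, against 12.3%, and none was higher, against 6.76%. FAD3C thus had its largest ratios between the days, of opposite sign, in the susceptible controls and the resistant inducer leaves.

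Plain library totals in place of TMM scaling also changed the background shares of other pairs. With the inducer against the control they became 1.72% higher and 6.14% lower in susceptible leaves of day 1, and 2.31% and 3.65% in resistant leaves of day 11. With biotype 1 alone in susceptible leaves they became 6.11% and 3.02%, and with the inducer against biotype 1 alone 2.40% and 6.59%. Between the cultivars they became 2.498% and 11.9% in the controls of day 1, 19.1% and 5.85% with the inducer at day 1, 12.3% and 9.91% in the controls of day 11 and 11.001% and 7.35% with the inducer at day 11. Between the days they became 8.29% and 12.8% in the susceptible and 5.84% and 1.99% in the resistant controls. Ratios of the desaturase genes that then fell short of 2-fold were FAD3A with the inducer (-0.94) and Glyma.03G144500 with biotype 1 alone (-0.77) in susceptible leaves of day 11, and FAD3B between the cultivars in the controls of day 11 (-0.84) and between the days in the susceptible controls (0.81).

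Reads that may have been divided bear on the FAD3A and FAD3B ratios. The sum of both was lower than in the control in all 6 matched aphid libraries, with log2 ratios for the inducer of -0.56 and -1.26 in susceptible leaves of day 1 and day 11 and of -0.06 and -0.27 in resistant leaves, and for biotype 1 alone of -1.45 in susceptible and -0.23 in resistant leaves. Of all retained genes, 5.79% were lower in all 6. The 2 libraries with the largest decrease shared the susceptible control of day 11. With plain library totals the ratio in resistant leaves of day 1 turned to 0.51, and the other 5 stayed below 0. The change of the sum with the inducer was -0.57 on the log2 scale (SE 0.25), with an adjusted p of 0.656 in edgeR's quasi-likelihood test.

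Whether infestation acted differently in the cultivars was tested with a further term. FAD3A had a log2 difference between the cultivars of 2.19 (SE 0.50, unadjusted p 0.00403, adjusted p 0.831 in edgeR's quasi-likelihood test), with 3 residual degrees of freedom, and 1.83 without the resistant control of day 1. For the sum of FAD3A and FAD3B it was 0.87 (SE 0.33, adjusted p 0.831 by the same test). None of the 6 genes was called in this comparison by edgeR or DESeq2, and FAD3A alone had an unadjusted p below 0.05 in edgeR, against 4.67% of all retained genes. For the inducer alone, in a test added after the data were seen, the difference for FAD3A was 2.14 (SE 0.52), which edgeR's quasi-likelihood test did not call (adjusted p 0.339) and DESeq2 called (adjusted p 0.0340), against 0.854% of genes called higher. It was 1.70 (adjusted p 0.759 in edgeR's quasi-likelihood test) without the resistant control of day 1.

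By likeness over the 10 libraries, the genes with the highest Pearson r to Glyma.03G144500 were Glyma.13G356100 (0.982), Glyma.14G003200 (0.979) and Glyma.10G157000 (0.975). For FAD3C they were Glyma.15G052200 (0.989), Glyma.18G259500 (0.989) and Glyma.13G150700 (0.987), and for SACPD-C they were Glyma.U038200.1 (0.871), Glyma.13G257500 (0.870) and Glyma.08G005200 (0.862). The search covered 22026 genes whose mean level was 5 CPM or more, all values share the same libraries and scaling, and with Spearman's rho 0, 1 and 1 of the 3 genes kept their place.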

How the data were processed

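RNA was taken from leaves, pooled from 3 replicates per condition and sequenced from stranded mRNA libraries. Per the labels and methods, the authors checked reads with FastQC 0.11.3 and MultiQC 1.3, trimmed them with Trimmomatic 0.36 and quantified them with Salmon 0.9.1 against primary transcripts of Wm82.a2.v1. The deposited values are estimated counts per gene, not scaled for depth or length. Salmon's handling of strand and bias is not given in the sources used here.

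Here the estimated counts were rounded to whole numbers, scaled by TMM, and genes over 0.5 CPM in at least 1 of the 10 libraries were kept (37468 of 55983). Depth ranged from 23394065 to 25665558 estimated counts, and 3 counts were taken as the limit of detection. The quasi-likelihood test of edgeR 4.0.16 in R 4.3.3 with Benjamini-Hochberg adjustment over all retained genes and a threshold of 0.05 was the main test, in a model of cultivar, day, cultivar by day and treatment (biological coefficient of variation 0.363). DESeq2 1.42.0 was an alternative. Shares have Wilson and levels exact Poisson 95% intervals, for counting error only. Matched libraries were compared by the ratio of CPM + 0.5 with a limit of 2-fold.

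Named were all 9 genes and, for the highest member of each family that passed the filter, the 3 genes most like it over the libraries. The genes, lists and tests were chosen with earlier results of these data known. As 0 identifiers matched the reference gene table, other pathway genes and leaf and seed markers were not analysed here, and no sequences were used. Alternatives covered the tool, normalization, filter, an additive model, day 11 alone, summed copies and each library left out in turn.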

Additional observations from a re-analysis of the deposited data

Results flagged for a closer look

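FAD3A with the inducer had opposite signs in the cultivars, with log2 ratios to the control of -1.52 at day 1 and -1.003 at day 11 in susceptible leaves and of 1.37 and 0.77 in resistant leaves. All 4 signs split by cultivar in this way, in either direction, in 16% of all retained genes. The difference between the cultivars was 2.14 (SE 0.52), with an unadjusted p of 0.00598 and an adjusted p of 0.339 in edgeR's quasi-likelihood test, and an adjusted p of 0.0340 in DESeq2, which called 0.854% of genes higher. With each library left out in turn it ran from 1.70 without the resistant control of day 1 to 2.66, with adjusted p between 0.109 and 0.772 in edgeR's quasi-likelihood test. For the sum of FAD3A and FAD3B, between which reads may have been divided, the difference was 0.46 (SE 0.44, adjusted p 0.647 in edgeR's quasi-likelihood test). These tests were added after the data were seen.

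FAD3C with the inducer had opposite signs at the days, with log2 ratios to the control of 0.52 in susceptible and 1.32 in resistant leaves at day 1 and of -0.83 and -0.97 at day 11. The signs split by day in this way in 6.78% of all retained genes. The difference between the days, also tested after the data were seen, was -1.87 (SE 0.39), with an unadjusted p of 0.00259 and an adjusted p of 1.00 in edgeR's quasi-likelihood test, and an adjusted p of 0.135 in DESeq2. It was -1.46 without the resistant control of day 1 and ran from -2.27 to -1.45 with each library left out in turn.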

How the results depend on the processing

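With edgeR's main fit of all 10 libraries, 0 of the 6 tested genes were called in any comparison. DESeq2 called 1 for day by cultivar, 3 between the cultivars at day 11 and 1 for inducer by cultivar (FAD3A, 2.14). Leaving out each library gave between 0 and 1 called gene for day by cultivar, between 0 and 1 for the cultivars at day 11 and between 0 and 1 for the days in the resistant cultivar, and the gene was FAD3C each time. The FAD3C day by cultivar difference ranged from -3.63 to -1.83 with adjusted p between 0.00221 and 0.268 over all alternatives. Of the single-gene estimates printed above, those that turned sign were FAD3B for day by cultivar (0.031 without the susceptible control of day 1, range with each library left out -1.15 to 0.031), SACPD-C for biotype 1 alone (-0.30 without the resistant biotype 1 library, range -0.30 to 2.92), FAD3C between the cultivars at day 1 (-0.16 without the resistant inducer library, range -0.16 to 1.63), and FAD3A and FAD3C for the inducer against control, with ranges of -0.64 to 0.44 and -0.45 to 0.32 with each library left out and 0.054 and 0.13 in the additive model. The cause was not tested. Over all alternatives the FAD3C change with the inducer ran from -0.93 to 0.32. With copies summed, 2 of 16 matched ratios of the FAD2-2 and FAD3 sums and 4 of 8 of SACPD-C passed 2-fold. For single genes 14 of 48 did, with 12 of 48 for plain totals and 11 of 48 for a pseudocount of 1. The counts for sums and for single genes have different totals and are not compared. Over the matched pairs, 1.19% to 14.2% of all retained genes were 2-fold higher and 2.24% to 13.9% lower. With plain totals the FAD2-2 sum in resistant inducer leaves of day 1 went from -1.25 to -0.67 (log2). The FAD3 sum went from -1.01 to -0.95 in susceptible inducer leaves of day 11. In resistant ones of day 1 it went from 0.71 to 1.29. With the inducer, SACPD-C rested on 2 control counts in susceptible leaves of day 11 and on 3 in resistant leaves of day 1. No paired analysis was possible because each condition had 1 library and the labels give no replicate numbers.

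Depth limits SACPD-C, FAD2-1A, FAD2-1B and Glyma.19G147300 most, and FAD3A and FAD3B are uncertain as separate genes. Pooling hides the spread between plants, and the model leaves 4 residual degrees of freedom, with errors moderated across genes.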
